A study of Xenopus laevis with 5 samples.

Results

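The genes described here encode the factors that start, extend and end protein synthesis and the enzymes that load transfer RNAs with amino acids. They were chosen by name: a probe set belonged to them where its annotated gene symbol was that of an initiation factor (eif1 to eif6), an elongation factor (eef1 or eef2), the release factor etf1 or an aminoacyl-tRNA synthetase. This gave 81 genes, measured by 115 probe sets, of 7531 named genes on the array. Xenopus laevis carries an L and an S copy, called homeologs, of many genes, so the 81 genes bear 68 names. Each gene was represented by its brightest probe set over all arrays, and 79 of the 81 passed the filter on dim probe sets. The rule used no difference between the groups.

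The study measured RNA of ectodermal explants (animal caps) of Xenopus laevis on 5 Affymetrix arrays, 1 per sample. Embryos at the 2-cell stage received either ICD RNA (3 samples) or ICD and FoxJ1 RNA together (2 samples), so the controls carried ICD too. The explants were cut at stage 9 to 10 and harvested at stage 22. The labels leave ICD unexplained; in work on this tissue it commonly stands for the Notch intracellular domain, which blocks the formation of multiciliated cells. FoxJ1 is a transcription factor of motile cilia genes. No dose of either RNA is stated in the labels. As a model, the explants are ectoderm cut away from the rest of the embryo, with RNA supplied by injection. The labels number the replicates without saying that they are separate sets of embryos. The p-values given set the difference between the groups against the spread among samples within them, and that spread may be technical.

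Translation begins when the factor eIF2 brings the initiator tRNA to the small ribosomal subunit. The complex eIF3 holds this subunit, the eIF4 factors bind the capped end of the mRNA and unwind it, and eIF5 and its relatives let the large subunit join. The elongation factor eEF1A then delivers each charged tRNA, eEF2 moves the ribosome on, and etf1 (eRF1) reads the stop codon. The tRNAs are charged by 1 synthetase for nearly each amino acid. Most, but not all, have a separate enzyme for mitochondria, and the gars1 and kars1 genes were counted here as cytosolic. In vertebrates, several cytosolic synthetases form a large complex with scaffold proteins. The genes are housekeeping genes in most tissues, and their level bears on how much protein a cell can make.

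The median signal per array was 62.1 to 73.5. Of the probe sets other than controls, 65.3% to 77.3% exceeded the background level of their array, the highest signal among 20 controls that match no frog transcript. Of the 81 genes, 75 exceeded it on all 5 arrays. No probe set carried the name foxj1. Of 9 multiciliated cell genes, 5 were called higher with FoxJ1 and 0 lower, and their summed signal was 3230 to 7313 in the ICD samples and 16815 to 22161 on the arrays with FoxJ1. The 3 basal epidermis genes were called lower, with a summed signal of 8587 to 9948 and of 2513 to 3656, and 3 of 5 tested neural genes were called lower, with sums of 897.1 to 1242 and of 536.8 to 540.0. Summed neural crest genes (1 tested, called lower) stood at 73.3 to 193.7 and at 26.8 to 27.6, and muscle and mesoderm genes (2 tested, 1 called in each direction) at 549.1 to 674.2 and at 309.5 to 328.9. Of 4 tested ionocyte genes 2 were called lower and 1 higher, with sums of 813.0 to 1008 and of 731.8 to 804.6, and of 5 general epidermis genes 1 was called lower, with sums that overlapped. The 3 goblet cell genes, in contrast, had 0 calls. The endoderm genes (0 tested), with a summed signal of 32.1 to 38.3 in the ICD samples and of 23.2 to 27.5 with FoxJ1, lay near background. The poly-A spike-in controls had a median signal of 318.2, 323.7 and 367.9 on 3 arrays (ICD replicates 1 and 2, and replicate 1 with FoxJ1), and of 2.95 and 1.90 on the other arrays. Both groups hold arrays of either kind. The split is called the labelling batch here, but it was inferred from these controls alone, and no label names a batch.

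Most translation factor and synthetase genes read somewhat lower with FoxJ1, but few passed the test. The limma test, with p-values adjusted over all 11618 probe sets, called 3 of the 79 genes lower and 0 higher at an adjusted p below 0.05. The 3 were eif3a.L, eif4b.S and tars1.L. Among all probe sets the same test called 7.47%, of which 2.99% were lower and 4.48% higher, so the share of 3.80% called lower lay near the background. At an unadjusted p below 0.05, 17 genes were lower and 7 higher, which together is 30.4% of the genes against 24.7% of all probe sets. Of all 11618 probe sets, 1432 were lower and 1434 higher at that threshold. Both arrays with FoxJ1 lay below all 3 ICD arrays for 34 genes (43.0%, against 23.0% of all probe sets) and above them for 7 (8.86%, against 21.2%). The median log2 difference, ICD with FoxJ1 minus ICD alone, was -0.28 over the 79 genes and -0.03 over all probe sets tested. All probe sets whose mean signal lay between the lower and upper quartile of these genes had a median of -0.06, and for 26.4% of them both arrays with FoxJ1 lay below all ICD arrays.

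The 79 log2 differences ran from -1.19 (eif6.S) to 0.88 (wars1.S), and 56 of them were below 0. For 49 genes the 95% interval lay within a 2-fold change in either direction, and the median width of the intervals was 1.11 on the log2 scale. Relative to each gene's ICD mean, the median gene stood at 0.09, -0.11 and 0.00 on the 3 ICD arrays and at -0.31 and -0.25 on the 2 arrays with FoxJ1. Both arrays with FoxJ1 thus lay below each ICD array. A lower signal in these whole explants cannot be split into fewer cells of a type and less RNA per cell. The summed markers of multiciliated cells, ionocytes, basal epidermis, neural tissue, neural crest, and muscle and mesoderm moved with the same groups. So did those of endoderm, near background. Single ionocyte genes, and single muscle and mesoderm genes, were called in both directions. The part of these markers in the result was not tested.

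**Figure D1:**
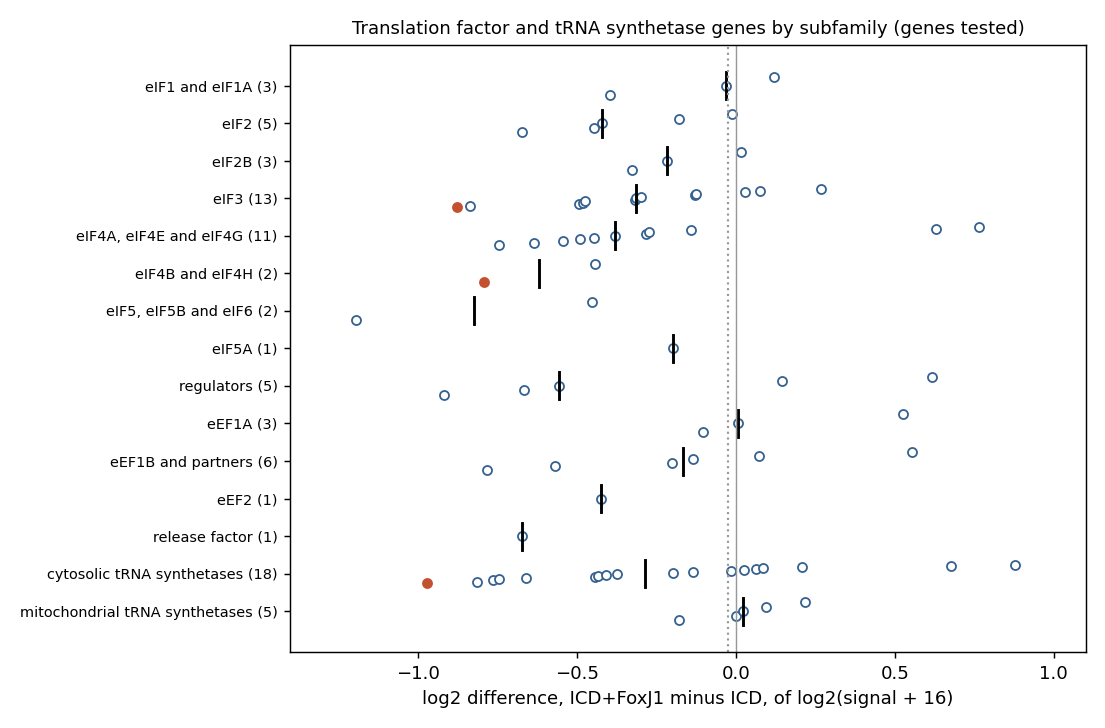
Log2 difference (ICD with FoxJ1 minus ICD) of each tested gene, by subfamily. Each point is the brightest probe set of 1 gene, filled points passed the limma test (3, all lower), the black bar is the subfamily median and the dotted line the median of all probe sets tested (-0.03). Most initiation factors lie to the left of the line, and the mitochondrial synthetases lie around it.

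The genes of the eIF1, eIF2 and eIF2B groups, formed by name, gave no call. The 3 tested genes of the eIF1 group, eif1ad.L (which encodes a protein with an eIF1A domain) and both copies of eif1b, had a median log2 difference of -0.03, with groups that overlapped for all 3. The 4 tested subunit genes of eIF2 had 0 calls by limma (0 also at an unadjusted p below 0.05). For 2 of them both arrays with FoxJ1 lay below all ICD arrays, which held for 23.0% of all probe sets. With eif2a.S, described last, these 5 genes had a median of -0.42. The 2 copies of the beta subunit gene eif2s2 showed nearly equal differences. eif2s2.L read 976.8, 667.7 and 785.9 in the ICD samples and 597.4 and 591.1 with FoxJ1, a log2 difference of -0.42 that did not pass the test (limma adjusted p 0.305). eif2s2.S read 606.7, 435.1 and 463.0 against 358.9 and 361.1, a difference of -0.45 (limma adjusted p 0.283). For both copies the ICD arrays lay above the arrays with FoxJ1, with the brightest array ICD replicate 1. The alpha subunit gene eif2s1.S, which carries the site phosphorylated under stress, differed by -0.18 with overlapping groups. eif2a.S, which encodes an alternative factor that can bring the initiator tRNA, read 94.6, 113.1 and 93.3 in the ICD samples and 68.7 and 46.7 with FoxJ1, with a difference of -0.67 (limma adjusted p 0.150), without overlap. The 3 genes of eIF2B, the exchange factor that recharges eIF2 with GTP, had a median of -0.22. Of these, eif2b2.L read 164.3, 160.5 and 142.0 against 127.3 and 114.2, which did not overlap, while the groups overlapped for eif2b3.L (-0.22) and eif2b4.L (0.02).

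The eIF3 complex held the gene with the smallest adjusted p of the 79. Its largest subunit gene, eif3a.L, fell with FoxJ1. Its signals were 3784, 3957 and 3673 on the ICD arrays (mean 3805 ± 143.2, SD, n = 3) and 2093 and 2039 with FoxJ1 (2066 ± 38.0, SD, n = 2). The groups were far apart relative to the spread within them, and the log2 difference was -0.88 ± 0.16 (SE, limma adjusted p 0.020). Without ICD replicate 2, ICD+FoxJ1 replicate 1 or ICD+FoxJ1 replicate 2 its adjusted p was 0.0796, 0.150 and 0.135, and within the batch with poly-A signal it was 0.165. eif3b.L, which encodes the subunit that binds eIF3a in the scaffold of the complex, read 802.2, 558.9 and 679.1 in the ICD samples and 325.6 and 421.3 with FoxJ1. All ICD arrays were brighter, and the difference of -0.83 ± 0.24 (SE) had a limma adjusted p of 0.0868. Next came eif3e.L (-0.49, limma adjusted p 0.170) and eif3d.S (-0.47, adjusted p 0.187), a subunit that can bind the cap of certain mRNAs. eif3d.S read 4080, 3012 and 3585 in the ICD samples and 2376 and 2710 on those with FoxJ1, again without overlap.

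Of the 13 tested eIF3 genes, 1 was called lower (7.69%, against 2.99% of all probe sets) and 0 higher (against 4.48%). A difference below 0 was seen for 10 of them. For 7 (53.8%, against 23.0% of all probe sets) both arrays with FoxJ1 lay below all ICD arrays. Their median log2 difference was -0.31. The members eif3k.L, eif3m.S and eif3i.L, named after their values were seen, had -0.48, -0.32 and -0.31. The eif3c, eif3g, eif3j and eif3l genes lay between -0.30 and 0.08. The S copy of eif3a was close to background, at 21.6, 30.0 and 28.3 in the ICD samples and 44.7 and 27.1 with FoxJ1, and its groups overlapped.

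The eIF4 factors, which prepare the mRNA, had 1 call. eif4b.S, which encodes a cofactor of the helicase eIF4A, fell with FoxJ1. It read 2982, 2468 and 2431 on the ICD arrays (2627 ± 307.9, SD, n = 3) and 1406 and 1609 with FoxJ1 (1508 ± 143, SD, n = 2). The lowest ICD array stood well above the higher array with FoxJ1, and the log2 difference was -0.79 ± 0.19 (SE, limma adjusted p 0.0472). This call lay close to the threshold: it was lost without any 1 of the 5 arrays, at adjusted p-values from 0.0505 to 0.302, and it held under 4 of 15 settings. The related cofactor gene eif4h.S read 1881, 1488 and 1559 against 1228 and 1170, a difference of -0.44 that did not pass (limma adjusted p 0.215).

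The 11 tested genes of eIF4A, eIF4E and eIF4G had a median log2 difference of -0.38, and 0 passed the limma test (2 higher and 1 lower at an unadjusted p below 0.05). They were grouped by name, eif4a3.1.S among them, and not all need act on the capped end of the mRNA. The eIF4E genes among them were eif4e1b.S, eif4e2.L and both copies of eif4e3, without eif4e itself. For 7 of the 11 genes (63.6%, against 23.0% of all probe sets) both arrays with FoxJ1 lay below all ICD arrays. For 2 they lay above (18.2%, against 21.2%). The share at an unadjusted limma p below 0.05 was 27.3%, against 24.7% of all probe sets. The helicase gene eif4a2.L read 381.0, 209.3 and 210.3 in the ICD samples and 157.4 and 136.5 with FoxJ1, with ICD replicate 1 apart from the other arrays. Its difference of -0.75 had a limma adjusted p of 0.189. eif4a1.L and eif4a1.S, named after their values were seen, had -0.64 and -0.54. With 1 array left out, eif4a1.L ran from -0.90 to -0.37. A dimmer probe set of eif4a1.S had the opposite sign, at 0.12. eif4g2.S, whose product DAP5 is a relative of the eIF4G scaffold used in cap-independent initiation, read 2273, 1619 and 1764 against 1279 and 1372, a difference of -0.49 (limma adjusted p 0.205).

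The opposite pattern was seen for eif4e3, which encodes a cap-binding relative of eIF4E. eif4e3.L read 66.6, 52.2 and 50.3 in the ICD samples and 92.0 and 122.6 with FoxJ1. eif4e3.S read 146.9, 126.6 and 120.1 in the ICD samples and 202.9 and 219.8 with FoxJ1. Both arrays with FoxJ1 were brighter than all ICD arrays for either copy. The log2 differences were 0.76 (95% interval 0.20 to 1.33, limma adjusted p 0.108) and 0.63 (0.10 to 1.16, adjusted p 0.143), so neither passed the test.

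**Figure D2:**
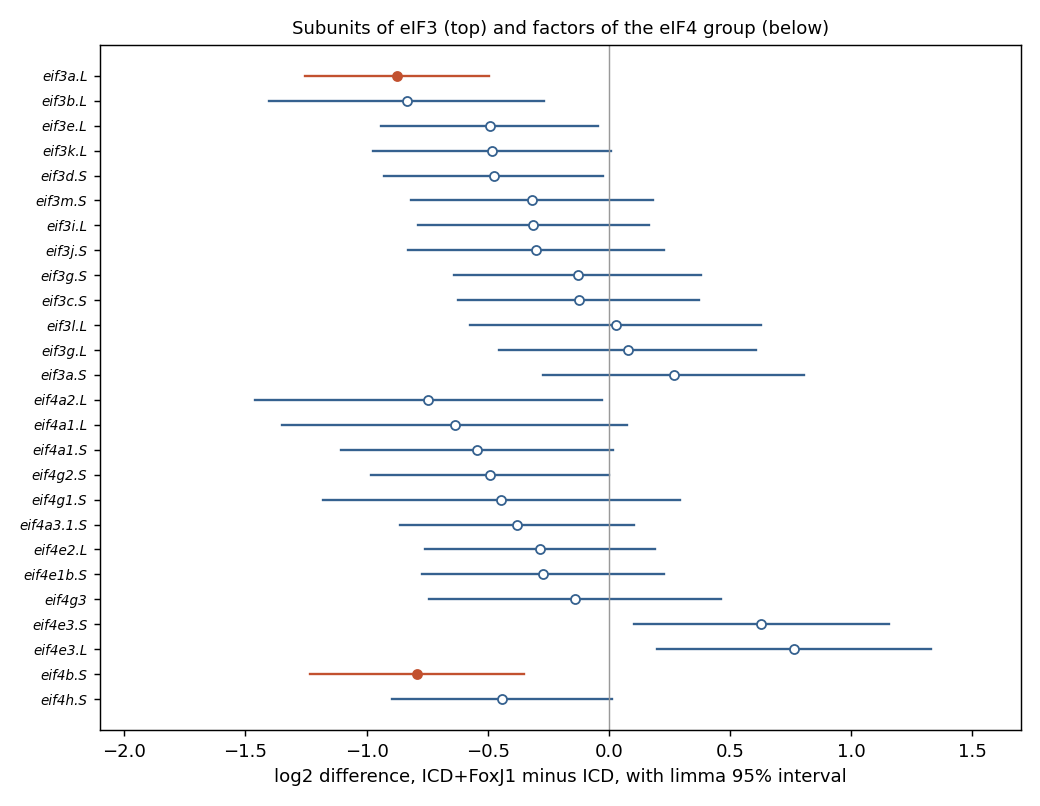
Log2 difference (ICD with FoxJ1 minus ICD) with its 95% interval from limma for each tested eIF3 and eIF4 gene, from 5 arrays. Filled points passed the test. eif3a.L and eif4b.S lie wholly below 0. So do eif3b.L, eif3d.S, eif3e.L and eif4a2.L, and the 2 copies of eif4e3 lie wholly above 0, all without passing the adjusted threshold.

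The late initiation factors were measured by few probe sets. eif6.S, which encodes a factor that keeps the large subunit from joining too early and takes part in its assembly, had the lowest difference of all 79 genes. It read 1130, 608.2 and 621.3 in the ICD samples and 339.3 and 302.6 with FoxJ1. ICD replicate 1 stood far above the other ICD arrays, and all of them exceeded the arrays with FoxJ1. The log2 difference was -1.19 ± 0.31 (SE, limma adjusted p 0.0586), so it narrowly missed the threshold. Without ICD replicate 1 it was -0.91 and passed (adjusted p 0.0249). eif5.S, whose product triggers GTP hydrolysis on eIF2, read 1832, 1146 and 771.8 against 823.4 and 889.4, with overlapping groups and a difference of -0.45 (limma adjusted p 0.460), which was -0.13 without ICD replicate 1 and -0.75 without ICD replicate 3. eif5a.L, whose product carries hypusine and helps ribosomes past stretches such as proline runs, differed by -0.20 with overlapping groups (limma adjusted p 0.547).

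The elongation factors gave 0 calls among 10 tested genes, with a median log2 difference of -0.12. An unadjusted limma p below 0.05 was seen for 5 of the 10 (3 lower and 2 higher), against 24.7% of all probe sets. eEF1A, which carries charged tRNAs to the ribosome, is one of the most abundant proteins of a cell. eef1a1.S read 6862, 6765 and 8608 in the ICD samples and 6103 and 7722 with FoxJ1, a log2 difference of -0.10 with a 95% interval that included 0. A dimmer probe set of eef1a1.S had -0.51 without overlap (limma adjusted p 0.240). eef1a1o.S differed by 0.01, while its L copy eef1a1o.L read 2813, 2432 and 2031 in the ICD samples and 3516 and 3426 with FoxJ1. The arrays with FoxJ1 were both brighter for this L copy (0.53, 95% interval 0.07 to 0.98, limma adjusted p 0.153). eef1a2.S, known in mammals for muscle and neurons, was near background at 5.6 to 22.6 on all arrays and was not tested. The translocase gene eef2.1.L read 4559, 4524 and 5099 in the ICD samples and 3430 and 3608 with FoxJ1, a difference of -0.42 (95% interval -0.80 to -0.05, limma adjusted p 0.161).

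The 6 genes of eEF1B, which reloads eEF1A with GTP, and its partners had a median of -0.17 and 0 calls. Both arrays with FoxJ1 lay below all ICD arrays for 2 (33.3%, against 23.0% of all probe sets). They lay above for 1 (16.7%, against 21.2%). By its name the scaffold gene eef1e1.L of the multi-synthetase complex is among the 6 and the elongation factors above. It is counted again with that complex. eef1b2.L, the exchange subunit, read 1778, 1913 and 2021 in the ICD samples and 1301 and 1254 with FoxJ1 (-0.57, limma adjusted p 0.106). The copies of eef1g, the structural subunit, had opposite signs. eef1g.S read 370.8, 366.2 and 344.3 against 509.8 and 564.6 (0.55, limma adjusted p 0.153), and its groups did not overlap. The groups of eef1g.L overlapped, with 2419, 2142 and 3370 against 1992 and 2560 (-0.20, limma adjusted p 0.660). The release factor gene etf1.S read 1267, 517.1 and 703.5 in the ICD samples and 464.3 and 495.5 with FoxJ1. ICD replicate 1 set most of its spread, and the difference of -0.67 had a 95% interval from -1.50 to 0.16. Without that array it was -0.32.

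**Figure D3:**
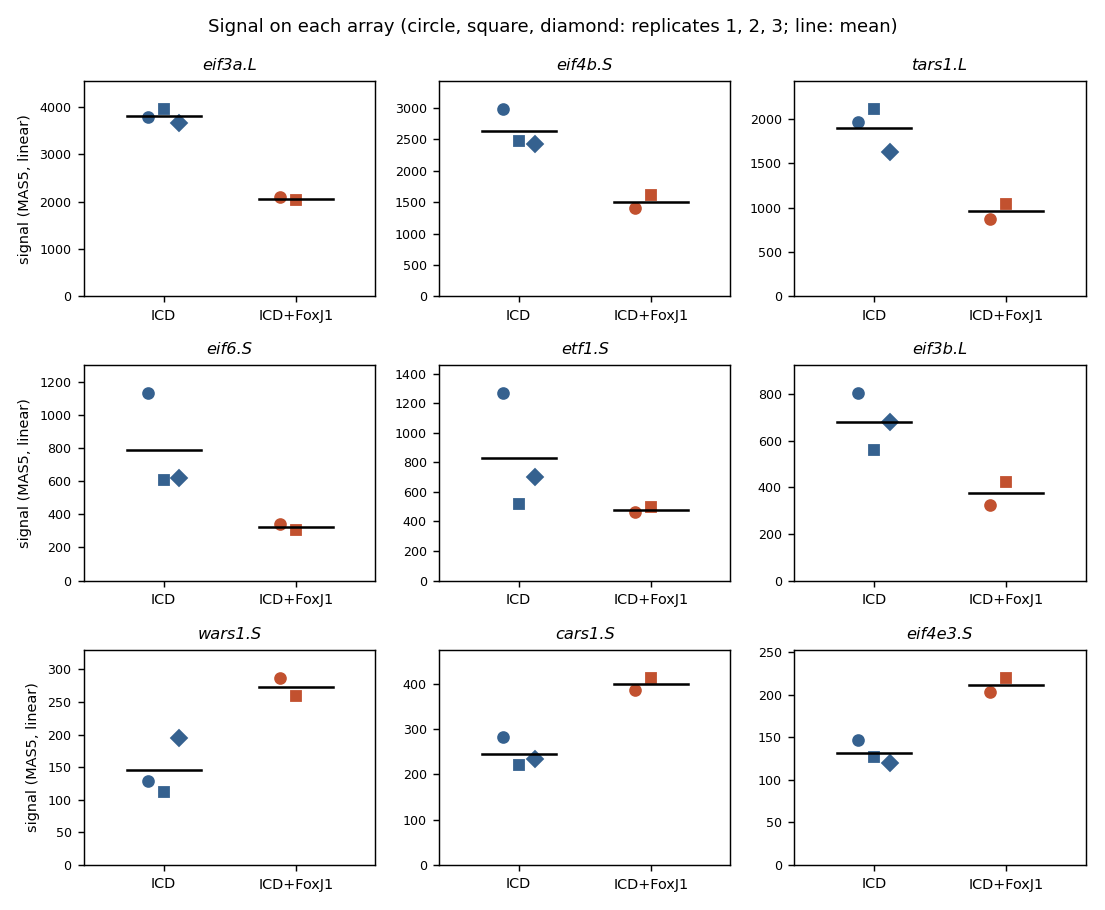
Signal (linear MAS5 intensity, axis from 0) on each array for 9 genes, by group. Circles, squares and diamonds are replicates 1, 2 and 3, and the line is the group mean. The ICD arrays lie above those with FoxJ1 for eif3a.L, eif4b.S, tars1.L, eif6.S, etf1.S and eif3b.L and below them for wars1.S, cars1.S and eif4e3.S, and ICD replicate 1 stands apart for eif6.S and etf1.S.

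The regulators of these factors also gave 0 limma calls among 5 tested genes. At an unadjusted p below 0.05, 1 was higher and 2 lower (60.0%, against 24.7% of all probe sets). eef1akmt1.S, a methyltransferase of eEF1A, read 148.4, 100.4 and 155.4 in the ICD samples and 47.7 and 81.1 with FoxJ1 (-0.92, limma adjusted p 0.112). eif4ebp2.S, which binds eIF4E and blocks it until phosphorylated by mTORC1, read 87.6, 126.7 and 113.2 against 76.3 and 50.2 (-0.67, limma adjusted p 0.178). eif4enif1.L, the transporter of eIF4E, was the one tested regulator higher on both arrays with FoxJ1, at 197.6 and 206.1 against 105.8, 142.9 and 131.4 (0.62, 95% interval 0.07 to 1.17, limma adjusted p 0.161). A further methyltransferase gene of eEF1A, eef1aknmt.S, had -0.56 with signals of 18.3 to 56.6. The only eIF2 kinase genes among the regulators were eif2ak2.L and eif2ak1.L, both near background. eif2ak2.L read 12.6 to 29.4 with overlapping groups, and eif2ak1.L read 5.8 to 20.7 and was not tested.

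Among the tRNA synthetases, 1 of 23 tested genes was called lower (4.35%, against 2.99% of all probe sets) and 0 higher (against 4.48%). This was tars1.L, the cytosolic threonyl-tRNA synthetase. It read 1961, 2109 and 1622 on the ICD arrays (1897 ± 249.6, SD, n = 3) and 871.9 and 1045 with FoxJ1 (958.2 ± 122, SD, n = 2). Its mean with FoxJ1 was 0.505 times the ICD mean, without overlap, and the log2 difference was -0.97 ± 0.21 (SE, limma adjusted p 0.0322). Without ICD replicate 2, ICD+FoxJ1 replicate 1 or ICD+FoxJ1 replicate 2 its adjusted p was 0.0998, 0.249 and 0.127, and a block for the labelling batch gave 0.0565.

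The 2 synthetases at the other end were wars1.S, for tryptophan, and cars1.S, for cysteine. wars1.S read 128.2, 112.0 and 194.7 in the ICD samples and 287.3 and 259.1 with FoxJ1, the highest difference of all 79 genes at 0.88 ± 0.28 (SE, 95% interval 0.23 to 1.53, limma adjusted p 0.107). cars1.S read 283.1, 220.1 and 233.3 against 385.8 and 413.9, a difference of 0.68 ± 0.23 (SE, 95% interval 0.15 to 1.2, limma adjusted p 0.119). Neither passed the test, although the groups were apart for both, and cars1.S passed without ICD replicate 1 (0.78, adjusted p 0.0466). yars1.S, for tyrosine, read 161.5, 94.2 and 117.9 against 68.0 and 62.6 (-0.76, limma adjusted p 0.140). This was the lowest of its 3 tested probe sets, which ran up to -0.00016.

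The 18 tested cytosolic synthetase genes had a median log2 difference of -0.28. Both arrays with FoxJ1 lay below all ICD arrays for 6 (33.3%, against 23.0% of all probe sets). They lay above for 2 (11.1%, against 21.2%). In vertebrates the synthetases for glutamate and proline, isoleucine, leucine, methionine, glutamine, arginine, lysine and aspartate sit together in the multi-synthetase complex. Its 10 tested genes, the scaffold gene eef1e1.L included, had a median of -0.42, 9 of them below 0, with 0 called. At an unadjusted limma p below 0.05, 3 were lower and 0 higher (30.0%, against 24.7% of all probe sets). Among all probe sets 1432 were lower and 1434 higher at that threshold. The 9 cytosolic synthetase genes outside the complex had a median of 0.06, with 5 above 0. Of the 9, 1 was called lower, tars1.L (11.1%, against 2.99% of all probe sets). Both arrays with FoxJ1 lay below all ICD arrays for 3 of the 10 (30.0%) and 4 of the 9 (44.4%), against 23.0% of all probe sets. They lay above for 0 of the 10 and 2 of the 9 (22.2%, against 21.2%). The 10 include both copies of eprs1, kars1 and qars1, and the 9 both copies of gars1. The difference between these subsets was not tested. eef1e1.L read 893.9, 824.6 and 654.7 in the ICD samples and 514.6 and 392.8 with FoxJ1 (-0.78 ± 0.24, SE, limma adjusted p 0.0956). The other members of the complex given here were named after their values were seen. qars1.S, for glutamine, read 187.8, 265.0 and 357.6 in the ICD samples and 125.4 and 160.2 with FoxJ1 (-0.81, limma adjusted p 0.155), and passed without ICD replicate 1 (-1.04, adjusted p 0.0323). lars1.L, for leucine, read 309.3, 183.0 and 224.2 against 128.2 and 138.0 (-0.74, limma adjusted p 0.149). For both genes every ICD array was the brighter. mars1.L had -0.66, and -0.39 without ICD replicate 1. The L and S copies of kars1 had -0.41 and -0.44, but -0.064 for the L copy without ICD+FoxJ1 replicate 2 and -0.067 for the S copy without ICD+FoxJ1 replicate 1. Synthetases fall into a pair of structural classes. The 9 cytosolic genes of class I, which holds wars1, cars1 and yars1, had a median of -0.43, and the 7 of class II, which holds tars1, had -0.37, with the bifunctional eprs1 left out.

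The mitochondrial synthetases lay near 0. None of the 5 tested genes was called (0 also at an unadjusted p below 0.05), the groups overlapped for all 5 and the median was 0.02. hars2.L, for histidine, had the largest difference at 0.22, from 394.9, 322.9 and 370.1 in the ICD samples and 387.8 and 461.5 with FoxJ1. mars2.L had -0.18 and cars2.L 0.10, and rars2.S and pars2.L had 0.02 and 0.00.

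**Figure D4:**
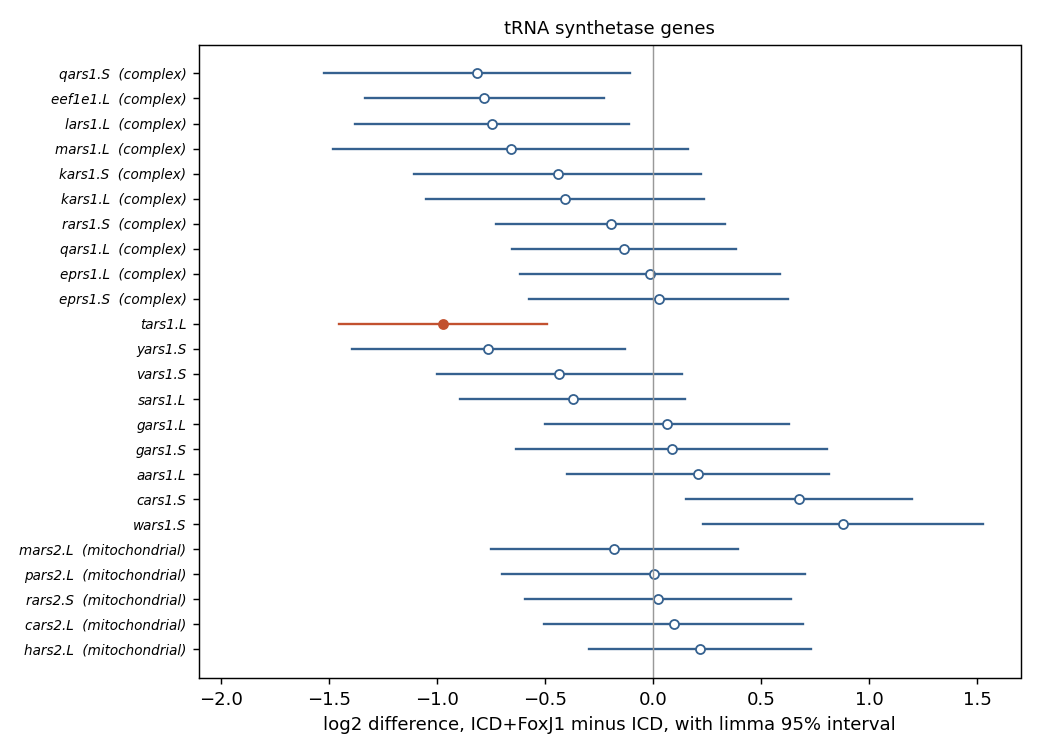
Log2 difference (ICD with FoxJ1 minus ICD) with its 95% interval from limma for each tested tRNA synthetase gene and the scaffold gene eef1e1.L, grouped as members of the multi-synthetase complex, other cytosolic enzymes and mitochondrial enzymes. Only tars1.L, filled, passed the test, and the mitochondrial enzymes centre on 0.

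Homeologs and further probe sets were compared on the same 5 arrays. They are not independent of each other, as a probe set for 1 homeolog can bind RNA of the other. Both copies were tested for 13 names, and the copies had the same sign for 7. Among these 7 the copies lay within 0.15 of each other on the log2 scale for eif2s2, eif4a1, eif4e3, kars1 and gars1, and further apart for qars1 (-0.13 and -0.81) and eef1a1o (0.53 and 0.01). Of the 6 pairs with opposite signs, eif3a (-0.88 and 0.27, the S copy near background) and eef1g (-0.20 and 0.55) parted most. Of 22 genes with several tested probe sets, the signs agreed in 17 and the calls in 16. The signs differed for eif3a.S (-0.13 and 0.27), eif4a1.S (-0.54 and 0.12), eif4e2.L (-0.28 and 0.04), eif5a.L (5 probe sets, -0.55 to 0.03) and eprs1.L (-0.01 and 0.11). The 3 genes called by their brightest probe set were not called by their dimmer ones, although all of these were below 0: eif3a.L had -0.53 and -0.42, eif4b.S -0.75 and -0.67, and tars1.L -0.84. In 3 other genes a dimmer probe set was called lower and the brightest was not. The dimmest of 3 for eif3b.L read 479.8, 438.4 and 534.6 in the ICD samples and 200.3 and 193.3 with FoxJ1 (-1.23 ± 0.22, SE, limma adjusted p 0.0156). The dimmer one of qars1.S had -1.07 (limma adjusted p 0.0434), and one of vars1.S, for valine, had -1.21 (adjusted p 0.0339) against -0.43 for the brightest, adjusted p 0.320. These 3 calls were lost without either array with FoxJ1, at adjusted p-values from 0.134 to 0.25. The eif3b.L call was also lost without ICD replicate 3 (0.0565), the vars1.S call without ICD replicate 2 (0.0875), and the qars1.S call without ICD replicate 2 or 3 (0.104 and 0.116). Counted over all 111 tested probe sets of these genes, 6 were called lower and 0 higher. Among all probe sets 2.99% were called lower and 4.48% higher.

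**Figure D5:**
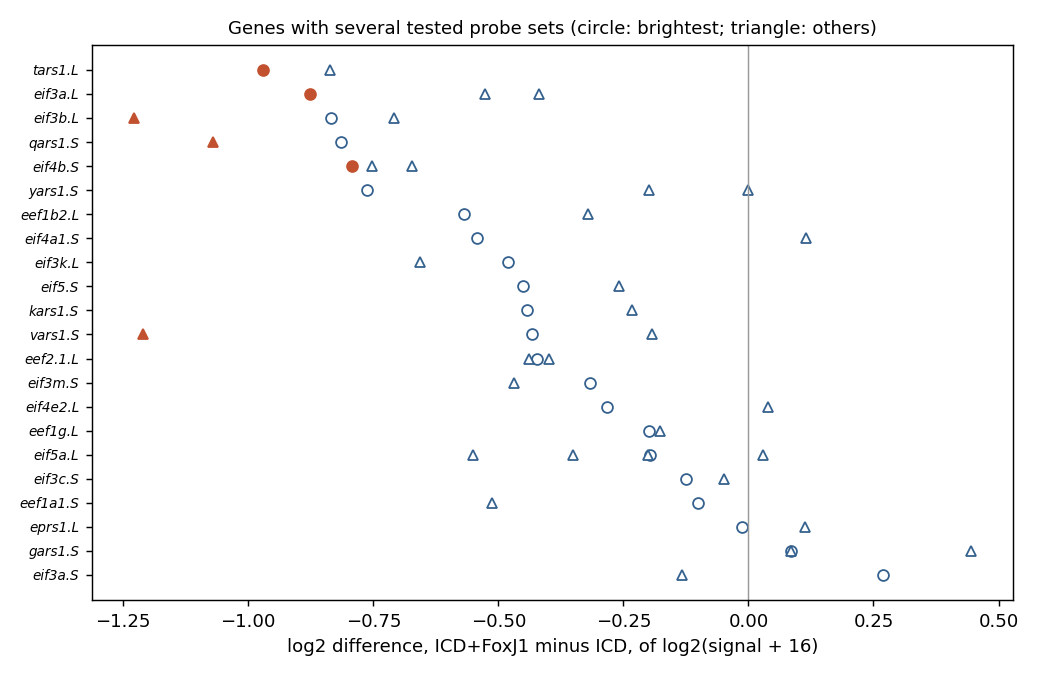
Log2 difference (ICD with FoxJ1 minus ICD) of each tested probe set for the 22 genes with several. Circles are the brightest probe set of a gene, triangles the others, and filled marks passed the limma test. The 6 called probe sets are all lower, and no gene has more than 1 of them.

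ICD replicate 1 was the brightest ICD array for many of these genes. It was the highest of the 3 ICD arrays for 43 of 79 genes (54.4%), against 35.5% of all probe sets tested, and for 27 of the 40 initiation factor genes. It shares the labelling batch with ICD replicate 2 and ICD+FoxJ1 replicate 1. Without it the median log2 difference of the 79 genes stayed below 0, and leaving out any 1 array gave medians from -0.31 to -0.25.

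Other genes of protein synthesis are given beside these for comparison. Of 71 tested cytosolic ribosomal protein genes, 3 were called lower (4.23%, against 2.99% of all probe sets) and 0 higher (against 4.48%). The 3 were rps12.L (-1.0), rpsa.S (-0.84) and rpl10a.S (-0.73), and the median of the 71 was -0.40. Each of these 3 calls held without ICD replicate 1 and was lost without any other single array, at adjusted p-values from 0.0701 to 0.303. Both arrays with FoxJ1 lay below all ICD arrays for 40 of the 71 (56.3%, against 23.0% of all probe sets). A difference below 0 was seen for 69 (97.2%, against 51.9%). ICD replicate 1 was their brightest ICD array in 5.63% of cases, unlike the factors above. A further 53 translation genes outside the naming rule, such as poly(A)-binding proteins, ribosome rescue factors and eIF2 phosphatase subunits, had a median of -0.18. Among them 1 was called lower (1.89%, against 2.99% of all probe sets) and 0 higher (against 4.48%). That gene was sbds.S, whose product removes eIF6 from the large subunit. It read 110.0, 104.6 and 97.2 in the ICD samples and 46.7 and 36 with FoxJ1, clearly apart (-1.07 ± 0.23, SE, limma adjusted p 0.0317). This call too was lost without any single array other than ICD replicate 1, at adjusted p-values from 0.0729 to 0.238.

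ATF4 is a transcription factor that activates many synthetase and amino acid genes when amino acids are short. Of 18 tested targets, 1 was called higher (5.56%, against 4.48% of all probe sets) and 0 lower (against 2.99%), with a median of -0.18. The gene was cebpb.L, itself a transcription factor, at 30.1, 24.2 and 35.0 in the ICD samples and 243.5 and 178.0 with FoxJ1 (2.30 ± 0.25, SE, limma adjusted p 0.00218). Of 17 tested genes of the mTORC1 pathway, which drives translation when nutrients are plentiful, 0 were called by limma, with a median of -0.02. At an unadjusted p below 0.05, 2 were higher and 1 lower (17.6%, against 24.7% of all probe sets). The regulatory subunit of phosphoinositide 3-kinase came nearest, with 0.82 for pik3r1.S and 0.81 for pik3r1.L (limma adjusted p 0.0883 and 0.103). The 4 tested mitochondrial translation factors had 0 calls (0 also at an unadjusted p below 0.05), with mtif3.L at 0.53 and mtg2.L at -0.53.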

How the data were processed

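RNA of 5 explant samples was hybridised as biotin-labelled cRNA to Affymetrix arrays of Xenopus laevis, 1 array per sample. The deposited values are linear signal intensities per probe set made with MAS5, per the submitters' processing notes; no source used here states the MAS5 version or settings. The number of arrays limits the precision. GEO's platform annotation gave 1 symbol for 9304 of 15611 probe sets, several for 195 and none for 6112. The 120 control probe sets were left out, and 5 probe sets matching the naming rule with several symbols were not used. Of the 81 gene identifiers, 80 were found in the RefSeq table of assembly Xenopus_laevis_v10.1, used for names only. A probe set for one homeolog can bind RNA of the other.

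Signals were compared as log2(signal + 16), which understates changes of dim probe sets, after the 25% with the lowest mean log2 value were left out. limma 3.58.1 in R 4.3.3 was fitted with a variance trend to the remaining 11618. Two-sided p-values were adjusted over all of them by the Benjamini-Hochberg method. The code was tested on simulated data with 200 changed probe sets each, fewer than were called here. It called 6.15% of the 2-fold and 75.1% of the 4-fold changes. A gene without a call may thus still have changed. Genes, lists and tests were chosen with earlier results of these data known. The 47 genes named by rule were the members past the threshold, the 4 with the smallest p per subfamily, their homeologs, all regulators, and the 5 highest and 5 lowest differences. In each comparison list the genes past the threshold, or else the 2 with the smallest p, were named. All other genes were named after their values were seen. Alternatives covered the added constant, the filter, scaling, the variance model, replicate and batch blocks, the batch with poly-A signal alone, the choice of probe set and each array left out. Figures were drawn with matplotlib 3.10.9.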

Additional observations from a re-analysis of the deposited data

How the results depend on the processing

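The median over the 79 genes lay between -0.32 and -0.25 under every alternative run. The count called lower (3) was 0 with the replicate block and within the batch with poly-A signal, 1 with the batch block, 6 over all probe sets of the genes, and 0 to 4 with 1 array left out. The count called higher was 0 except without ICD replicate 1, where it was 1. Counts over all probe sets, 521 higher and 347 lower, were 243 and 73 with the replicate block, 167 and 22 within the batch with poly-A signal, and 143 to 736 and 34 to 655 with 1 array left out, and the batch block gave 212 lower. The labels do not say that the replicate numbers pair the samples, and the main fit used no pairing. Deviations from the group means had r = -0.06 and -0.32 for same-numbered replicates. This check cannot decide on pairing, because deviations of only 2 arrays with FoxJ1 mirror each other. ICD replicate 2 also shares its batch with ICD+FoxJ1 replicate 1, not with replicate 2. The calls of eif3a.L, tars1.L and eif4b.S were lost with the replicate block (adjusted p 0.142, 0.114 and 0.194) and within the batch with poly-A signal (0.165, 0.137 and 0.217), besides the losses given with their values. The eif4b.S call was also lost with the batch block (0.0634), no filter (0.0657), median centring (0.0604) and no variance trend (0.0742). eif6.S passed after quantile normalization (-1.19, adjusted p 0.0462). Small subfamilies moved most. The eIF2B median was -0.39 with the replicate block, -0.063 with the batch block and -0.40 to -0.051 with 1 array left out. The regulators' median was -0.79 with 1 added to the signal, -0.28 with 64 added, -0.21 with no filter, -0.16 within the batch with poly-A signal and -0.64 to -0.28 with 1 array left out. The eEF1B median was -0.027 and the mitochondrial synthetases' 0.20 with the replicate block. With 1 array left out the medians ran from -0.54 to -0.28 for eIF2, from -0.28 to -0.027 for eEF1B, from -0.28 to -0.13 for the cytosolic synthetases and from -0.082 to 0.20 for the mitochondrial ones. Of the genes named, 9 near 0 changed sign under some setting. With quantile normalization, eif1b.L was 0.035, eif2b4.L -0.034 and rars2.S -0.035. With median centring, eef1a1o.S was -0.026, eif2b4.L -0.017 and rars2.S -0.011. With the replicate block, eef1a1.S was 0.011 and eif1b.L 0.10, and with the batch block eef1a1o.S was -0.050, eif2b4.L -0.038 and rars2.S -0.054. Within the batch with poly-A signal, eef1a1o.S was -0.11, eif2ak2.L -0.0094 and eif2b4.L -0.063. With 1 array left out, cars2.L ran from -0.069 to 0.27, eef1a1.S from -0.27 to 0.068, eef1a1o.S from -0.20 to 0.22, eif1b.L from -0.16 to 0.10, eif2ak2.L from -0.015 to 0.32, eif2b3.L from -0.59 to 0.16, eif2b4.L from -0.16 to 0.19, mars2.L from -0.33 to 0.0023 and rars2.S from -0.15 to 0.20. The cause of these moves was not tested. Fewer arrays leave wider intervals, and dim genes such as eif3a.S, eif2ak2.L and the eEF1A methyltransferase gene eef1aknmt.S are limited by their closeness to background.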
